A study of Mus musculus with 12 samples.

Results

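Enpep, Tmem27 and 7 genes that act with angiotensin peptides were followed in the cochlear epithelium of mouse embryos lacking Esrp1. The set comprised 9 of the 22869 genes counted, namely Enpep, Tmem27, Ace, Agt, Agtr1a, Agtr2, Anpep, Mme and Lnpep. They were selected from the table by gene symbol, Enpep and Tmem27 because earlier results of these data gave them large changes between the genotypes and the others because they make, cut or sense angiotensin. For Enpep and Tmem27, the difference between knockout and control is therefore a description of what chose them.

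RNA was sequenced from 3 Esrp1 knockout (Esrp1-/-) and 3 control (wild-type) embryos, all C57BL/6 and all at embryonic day 16.5. The epithelium lining the cochlea was dissected by hand and treated with collagenase P to strip mesenchyme, and both cochleae of an embryo were pooled. Each embryo gave 2 libraries of polyA RNA, which stand together as 1 column in the counts, so that n is embryos. The labels name no treatment for either group and do not say whether the Esrp1 deletion was in all cells.

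Angiotensinogen, the product of Agt, is cut by renin to angiotensin I, which angiotensin-converting enzyme (Ace) shortens to angiotensin II. Angiotensin II acts through the receptors encoded by Agtr1a and Agtr2 until peptidases on the cell surface remove it. Enpep encodes aminopeptidase A, which takes the acidic first residue off angiotensin II and leaves angiotensin III, the substrate of aminopeptidase N (Anpep). Tmem27, also named Cltrn, encodes collectrin, a transmembrane glycoprotein without peptidase activity that carries amino acid transporters to the cell surface in kidney.

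The embryos were first checked on the targeted gene and on markers. Esrp1 stood at 27.2 to 39.1 CPM (reads scaled to library size by TMM) in knockouts, against 102 to 197 CPM in controls. Depth was 12547301 to 18473139 reads on genes in knockouts and 16411205 to 21568516 in controls. The summed level of 10 epithelial markers was 1389 to 1773 CPM in knockouts and 1121 to 2175 CPM in controls, and all 10 were detected, Esrp1 among them. Markers of periotic mesenchyme were also present, with a sum above the epithelial one in every embryo, at 3222 to 3258 CPM in knockouts and 2383 to 3545 CPM in controls, and 10 endothelial markers at 247 to 424 CPM in knockouts and 272 to 529 CPM in controls. Xist, made from the inactive X chromosome, was at 1098 CPM in knockout 1 and at most 0.268 CPM in knockouts 2 and 3, against 1312.5 to 1807.5 CPM in controls, while Ddx3y of the Y chromosome was at 94.97 and 81.87 CPM in knockouts 2 and 3 and at most 0.907 CPM in the others. Sex therefore differed between the groups, and results without knockouts 2 and 3 are given where they bear on an X-linked gene. Fos, an immediate early gene, was highest in both embryos numbered 1 (64.6 CPM in knockout 1 and 152.7 CPM in control 1, against at most 7.27 CPM in the others), so that these 2 embryos stood apart. In these bulk samples, fewer cells of a type and less RNA per cell cannot be told apart.

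Of 14717 genes tested, 22 (0.149%) passed an adjusted p of 0.05 in edgeR's quasi-likelihood test, 12 of them higher in knockouts (0.0815%) and 10 lower (0.0679%). Among the 9 genes, Tmem27 was higher and Enpep was lower, and the other 7 did not pass. As Enpep and Tmem27 were picked from this contrast, nothing is read from 2 of 9. The groups did not overlap for 4 of the 9 genes, namely Enpep below control and Tmem27, Agt and Anpep above it, as was so for 9.84% of all genes tested (4.44% below and 5.4% above). Nothing is read from this count either, as it includes the picked genes and Agt, which passed the low-count filter only through knockouts.

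The stretches of 250 bases just before the start sites of Enpep and Tmem27 are shown because these are the genes picked for their differences between the genotypes. Both are RefSeq sequence on GRCm38.p6 (the build called mm10), written 5′ to 3′ on the strand of the gene. Capitals in Enpep mark TTTATA, which is TATAAA on the opposite strand, its first base 52 bases before the start. In Tmem27 they mark GTTAATTATTAA, its first base 54 bases before the start, which matches the palindrome that HNF1, a homeodomain factor, binds (GTTAAT and ATTAAC with 1 base between) except for the last base.
Enpep promoter, chr3:129332750-129332999, minus strand: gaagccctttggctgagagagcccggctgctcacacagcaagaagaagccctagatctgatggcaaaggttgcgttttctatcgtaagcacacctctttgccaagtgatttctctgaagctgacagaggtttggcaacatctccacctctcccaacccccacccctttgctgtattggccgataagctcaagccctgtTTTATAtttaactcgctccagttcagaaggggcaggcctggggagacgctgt
Tmem27 promoter, chrX:164089937-164090186, plus strand: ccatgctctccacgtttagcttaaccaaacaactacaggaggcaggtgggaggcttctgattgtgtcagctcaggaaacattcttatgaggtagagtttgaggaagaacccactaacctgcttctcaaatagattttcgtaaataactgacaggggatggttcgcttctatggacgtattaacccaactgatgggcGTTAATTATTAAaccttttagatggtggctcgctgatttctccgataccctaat

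The Tmem27 window lies before the outermost of the 2 starts in the table. Each motif was searched on both strands, and none overlapped another. TATAAA lay in 12.4% of the 32851 promoter windows of the same length. The HNF1 palindrome without its last base, a form chosen after the sequence was seen, lay in 0.0609% of them (20 windows), and the full palindrome in 0.00913% (3 windows) and in neither gene. AAGGTCA, bound by estrogen-related receptors (in 4.08% of windows), and TAATCC, the core that bicoid-type homeobox factors bind (6.25%), were in neither. A match is a description of letters and not a site.

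Enpep (chromosome 3, 129269177 to 129332749, minus strand) was lower in knockouts, at 26.1% of control. Its level was 71.5, 50.9 and 58.2 CPM in knockouts 1, 2 and 3, against 326, 162 and 203 CPM in controls 1, 2 and 3. Every knockout lay below every control, and control 1 was highest. The means were 60.2 ± 10.5 CPM in knockouts and 231 ± 85.3 CPM in controls (SD, n = 3 each), a log2 fold change of -1.94 ± 0.26 (SE) with an adjusted p of 0.0365 by edgeR's quasi-likelihood test, the value that chose it. That is a 3.83-fold lower level, from 872 to 948 reads per knockout and 3582 to 5205 reads per control.

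Relative to epithelial markers, the controls differed little in Enpep. Taken as a percentage of the summed CPM of 9 epithelial markers other than Esrp1, Enpep was 4.75, 3.76 and 3.35% in knockouts, against 16.5, 16.0 and 16.8% in controls. The controls then lay within a narrow band, with a coefficient of variation of 2.62%, against 37.0% for their CPM. The knockouts did not draw together, with 18.1% on this scale and 17.4% for CPM. The ratio of knockout to control means was 0.241 on this scale. With the log2 of that marker sum as a covariate, added after the data were seen, the log2 fold change was -2.05 and its adjusted p 0.00501 by edgeR's quasi-likelihood test. Enpep was picked from the same contrast in these embryos, so this p too is a description and no further support.

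**Figure D1:**
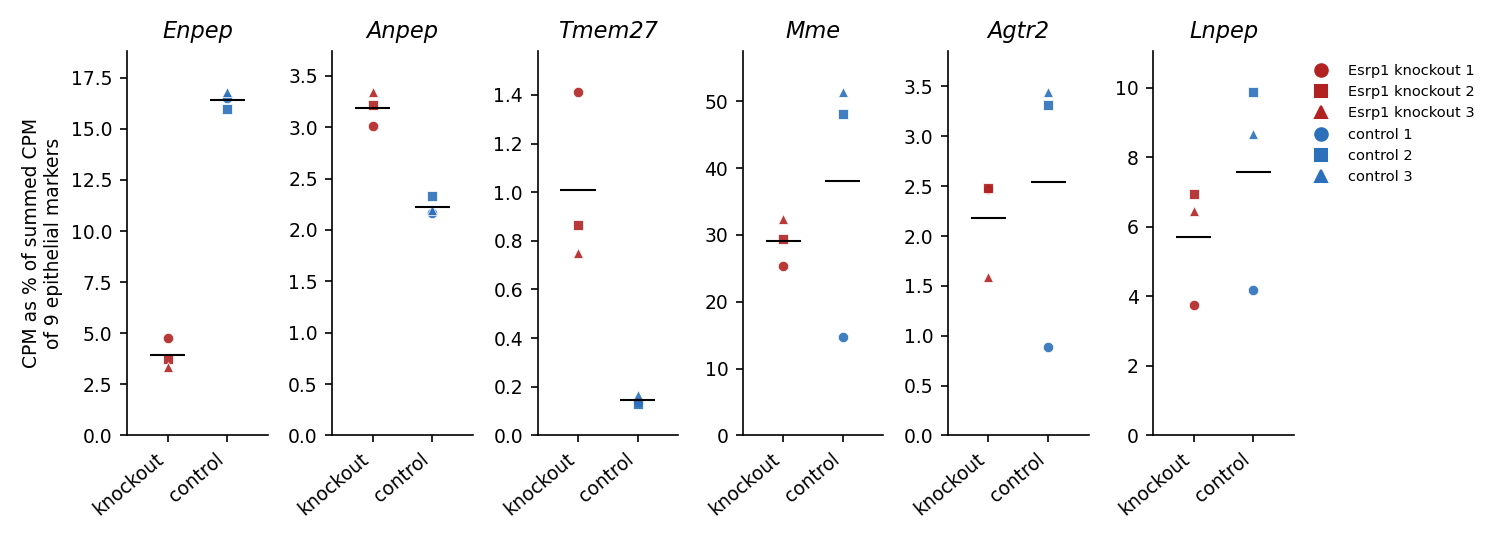
CPM of 6 of the genes as a percentage of the summed CPM of 9 epithelial markers, for each embryo (red, knockout; blue, control; symbols, embryo number; lines, means), with a separate axis per gene. Controls sit within 16.0 to 16.8% for Enpep, above all knockouts, and within 2.16 to 2.33% for Anpep, below all knockouts, while Mme, Agtr2 and Lnpep overlap between the groups.

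Anpep (chromosome 7, 79821803 to 79848210) encodes aminopeptidase N, which acts on angiotensin III and on many other peptides. Its level was 45.4, 43.5 and 58.0 CPM in knockouts 1, 2 and 3, against 42.7, 23.7 and 26.5 CPM in controls. Every knockout lay above every control, but knockout 2 was only just above control 1. The log2 fold change was 0.66 ± 0.23 and did not pass (adjusted p = 0.773, edgeR's quasi-likelihood test). With both embryos numbered 1 left out, it was 1.00 with an adjusted p of 0.0248 by the same test.

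Per epithelial marker sum, Anpep was 3.01, 3.21 and 3.34% in knockouts and 2.16, 2.33 and 2.19% in controls. The groups did not overlap on this scale either, where the means were 3.19 ± 0.167% in knockouts and 2.23 ± 0.0900% in controls (SD, n = 3 each). The ratio of means was 1.43, beside a CPM mean in knockouts of 158% of control, and the two-sided exact permutation p was 0.10, which is as small as 3 embryos against 3 allow. Per mesenchymal marker sum, Anpep was 1.41, 1.34 and 1.78% in knockouts and 1.79, 0.750 and 0.746% in controls, and the groups overlapped (two-sided exact permutation p = 0.4). In the fit with the epithelial sum as a covariate, Anpep stood at a log2 fold change of 0.53 (adjusted p = 0.195, edgeR's quasi-likelihood test).

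Enpep and Anpep act one after the other on angiotensin II, and their levels per length can be set against each other within an embryo. In FPKM, which counts fragments per transcript length and depth, Enpep divided by Anpep was 1.29, 0.949 and 0.809 in knockouts, against 6.17, 5.59 and 6.22 in controls. The 2 transcripts were thus at similar levels per length in knockouts, and Enpep was the higher in each control. Both members of this ratio had been seen before it was formed.

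Lnpep (chromosome 17, 17527723 to 17624489) encodes the insulin-regulated aminopeptidase, which also binds angiotensin IV. It was at 56.4, 93.9 and 112 CPM in knockouts, against 82.5, 101 and 105 CPM in controls. The groups overlapped, and knockout 1 was lowest. Lnpep had a fold change of -0.13 ± 0.23 on the log2 scale (adjusted p = 0.994, edgeR's quasi-likelihood test).

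Enpep belongs to the M1 family of zinc aminopeptidases, of which 10 of the 11 in the table were tested. Enpep, picked from this contrast, was lower, and no other member passed, beside 0.0679% of all genes tested. The median log2 fold change over the 10 was 0.05, beside 0.0016 over all genes tested. The 7 cytosolic, secretory-pathway or surface members not followed above lay close to 0. They were Erap1 (0.05), which trims antigenic peptides, Npepps (0.10), Trhde (0.05), which cleaves thyrotropin-releasing hormone, Rnpep (-0.01), Rnpepl1 (0.03), Lta4h (0.06), which makes leukotriene B4, and 2010111I01Rik (0.11). As a share of the summed FPKM of the 11 M1 genes, Enpep made up 6.48 ± 1.31% in knockouts and 21.5 ± 5.59% in controls (SD, n = 3 each).

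Mme and Ace belong to other peptidase families. Mme (chromosome 3, 63295211 to 63383713) encodes neprilysin, an endopeptidase that cuts angiotensin I and many other small peptides. It was at 382, 397 and 562 CPM in knockouts, against 291, 489 and 621 CPM in controls. The groups overlapped, with the lowest and the highest value both among controls. The log2 fold change was -0.06 ± 0.27 (adjusted p = 0.994, edgeR's quasi-likelihood test), and its sign changed with the fit.

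Ace (chromosome 11, 105967948 to 105989964) was at 5.79, 4.78 and 5.40 CPM in knockouts, against 6.02, 5.44 and 5.98 CPM in controls. The groups overlapped, and all 6 embryos lay close together. On the log2 scale the difference was -0.13 ± 0.22 (adjusted p = 0.994, edgeR's quasi-likelihood test). Exons of Ace overlap the antisense gene Gm11651, and as the strand used in counting is not stated, reads of the pair cannot be told apart. Ace had 2 rows, for transcripts of different length, and the row with fewer reads held 62.5 ± 7.53% of the reads of the main row in knockouts and 62.3 ± 3.23% in controls (SD, n = 3 each). The difference was 0.223 percentage points (two-sided exact permutation p = 0.9). The rows share reads, so this bears only on their net ratio.

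Agt (chromosome 8, 124556587 to 124569706) encodes the substrate from which all angiotensins are cut. It had 90, 13 and 13 reads in knockouts, against 6, 11 and 7 reads in controls. Each knockout was above each control in CPM, but knockout 1 stood far from the rest, at 6.86 CPM against 0.698 and 0.867 CPM in knockouts 2 and 3. Controls were at 0.376 to 0.499 CPM. The log2 fold change was 2.69 ± 0.90 and did not pass (adjusted p = 0.712, edgeR's quasi-likelihood test). Without knockout 1 it was 0.87, with an adjusted p of 0.999 by the same test, so the value rests on that embryo. The authors' deposited table gives Agt an FDR of 0.0472, a threshold of 0.05 being passed there by 0.735% of genes. Agt passed the low-count filter only through knockouts, since it reached 0.573 CPM in 3 knockouts and in 0 controls, and so had to be higher there. The other 8 genes reached that level in all 6 embryos.

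Renin was nearly absent from the reads. Ren1 had 1, 0 and 0 reads in knockouts and 1, 1 and 0 reads in controls, and its near-identical copy Ren2 had the same counts, so that they cannot be told apart. At this depth no difference was detectable.

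Agtr2 (chromosome X, 21484624 to 21488833) encodes the type 2 angiotensin receptor, which is known for expression in fetal mesenchyme. It was at 37.3, 33.6 and 27.6 CPM in knockouts, against 17.5, 33.7 and 41.6 CPM in controls. The groups overlapped, and control 1 was lowest. The log2 fold change was 0.08 ± 0.28 (adjusted p = 0.994, edgeR's quasi-likelihood test). Its control coefficient of variation was 39.7% in CPM, 23.1% per mesenchymal marker sum and 56.6% per epithelial marker sum. In knockouts it was 15.0% in CPM, 15.4% per mesenchymal and 23.5% per epithelial marker sum, so the mesenchymal scale did not draw the knockouts together. Without knockouts 2 and 3, the log2 fold change of this X-linked gene was 0.26 (adjusted p = 0.799, edgeR's quasi-likelihood test).

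Agtr1a (chromosome 13, 30336356 to 30382867), the type 1a receptor, had 21, 13 and 11 reads in knockouts, against 16, 17 and 12 reads in controls. The groups overlapped at these low counts. Its log2 fold change was 0.31 ± 0.48 (adjusted p = 0.994, edgeR's quasi-likelihood test). Agtr1b had 0 reads in all 6 embryos, which allows a level of up to 0.0642 CPM over the knockouts and 0.0530 CPM over the controls (3 reads of each group's total, counting error only). Mas1, the receptor of angiotensin-(1-7), had 24 reads over knockouts and 23 over controls and was not tested.

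Compared per length, the 9 genes covered a wide span of levels, and their order differed between the genotypes. In knockouts Mme led with 47.9 ± 7.79 FPKM. Lnpep (6.92 ± 1.83 FPKM), Enpep (5.97 ± 1.39), Anpep (5.91 ± 0.635), Tmem27 (5.66 ± 2.31) and Agtr2 (5.28 ± 1.09 FPKM) followed, and neighbours in this row overlapped between embryos. Agt (0.675 ± 0.870 FPKM), Ace (0.502 ± 0.0723) and Agtr1a (0.206 ± 0.116 FPKM) were lowest. In controls Mme (49.8 ± 19.8 FPKM) and Enpep (22.0 ± 6.43 FPKM) led and overlapped between embryos. Lnpep (7.62 ± 1.42 FPKM), Agtr2 (4.91 ± 2.16) and Anpep (3.66 ± 0.935 FPKM) came next, and Tmem27 was at 0.708 ± 0.189 FPKM. Ace (0.528 ± 0.0293 FPKM), Agtr1a (0.159 ± 0.0251) and Agt (0.096 ± 0.0260 FPKM) closed the order (all SD, n = 3).

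**Figure D2:**
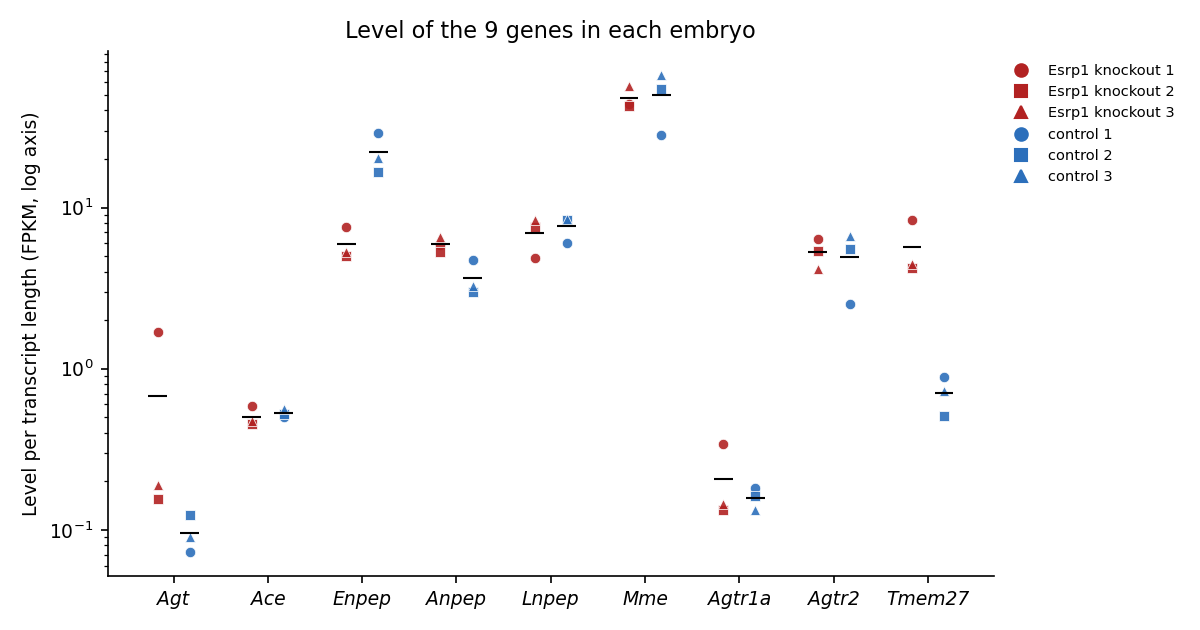
Level of each of the 9 genes in FPKM, as the authors deposited it, on a log axis, with knockout embryos in red left of control embryos in blue (symbols, embryo number; lines, means). Enpep lies at 5.03 to 7.58 FPKM in knockouts, below 16.6 to 29.1 FPKM in controls, and Tmem27 at 4.23 to 8.32 FPKM in knockouts, above 0.509 to 0.886 FPKM in controls.

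Tmem27 (chromosome X, 164090187 to 164118859, plus strand) was 7.70-fold higher in knockouts. It was at 21.3, 11.7 and 13.01 CPM in knockouts 1, 2 and 3, against 2.69, 1.32 and 1.99 CPM in controls. Every knockout lay above every control, and the embryos numbered 1 were the highest of each group. The means were 15.3 ± 5.19 CPM in knockouts and 2.00 ± 0.690 CPM in controls (SD, n = 3 each), with a log2 fold change of 2.94 ± 0.35 and an adjusted p of 0.0255 by edgeR's quasi-likelihood test, the value that chose it. The counts were 195 to 279 reads per knockout and 29 to 43 per control, and the ratio of summed reads was 7.68 (exact 95% interval 6.27 to 9.49, counting error only).

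As a percentage of the epithelial marker sum, Tmem27 was 1.41, 0.864 and 0.750% in knockouts, against 0.136, 0.129 and 0.165% in controls. The coefficient of variation in knockouts was 35.1% on this scale and 33.8% in CPM, and that in controls was 13.3% on this scale and 34.5% in CPM. With only the Xist-expressing embryos, which leaves knockout 1 against the 3 controls and assumes that a lone embryo varies like the others, the log2 fold change of Tmem27 was 3.41 (adjusted p = 0.189, edgeR's quasi-likelihood test). Enpep was then at -1.70 (adjusted p = 0.191 by the same test). The 527 X-linked genes tested had a median log2 fold change of -0.02, beside 0.00 for the 14093 others with a position.

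Transcripts of 6 tested neighbours within 300 kb of Tmem27 did not pass. Siah1b, a ubiquitin ligase gene 13.7 kb away, had a log2 fold change of -0.01. Ap1s2 was at 0.10, Zrsr2 at -0.21, Car5b at 0.04, Pir at 0.35 and Figf at 1.05 on the same scale, with adjusted p of 0.994 to 0.996 by edgeR's quasi-likelihood test. Bmx was not tested, with 13 reads over knockouts and 19 over controls. Near Enpep, Elovl6, a fatty acid elongase gene, was at -0.17 on the log2 scale (adjusted p = 0.994 by the same test).

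Collectrin carries amino acid transporters in kidney, and a list of those and related carriers was followed. Of 10 tested in the list, edgeR's quasi-likelihood test called Tmem27 higher, beside 0.0815% of all genes, and none lower. Tmem27 was picked from this contrast, so nothing is read from 1 of 10, and the other 9 did not pass. The median log2 fold change over the 10 was -0.14, beside 0.0016 over all genes. Slc6a19, a renal partner of collectrin, had 9 reads over knockouts and 1 over controls, and Slc6a18 had 0 reads. Slc6a15, a neutral amino acid transporter, was at 1.03 ± 0.18 (adjusted p = 0.119, edgeR's quasi-likelihood test). Slc7a8, the light chain of an amino acid exchanger, had -0.81 ± 0.21 (adjusted p = 0.377 by the same test). DESeq2 called Tmem27 and Slc6a15 higher and Slc7a8 lower, beside 1.01% of all genes to which it gave an adjusted p.

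The renin-angiotensin list held 28 genes, of which 20 were tested. Enpep was lower, none was higher and 19 did not pass. In edgeR's quasi-likelihood test 6 of the 20 were at an unadjusted p under 0.05, as were 4.77% of all genes tested. They were Enpep, Agt, Anpep, Cma1, Mcpt4 and Cpa3. Nothing is read from this count, since Enpep was picked from this contrast and Agt passed the low-count filter only through knockouts. The median log2 fold change over the 20 was 0.06, beside 0.0016 over all genes. DESeq2, which called 1.01% of the genes to which it gave an adjusted p, called 4 of the list, Enpep lower and Cma1, Mcpt4 and Cpa3 higher. Cma1 and Mcpt4, mast cell chymases that can form angiotensin II, had log2 fold changes of 1.79 ± 0.40 and 1.41 ± 0.33 (adjusted p = 0.241 and 0.263, edgeR's quasi-likelihood test). Cpa3, mast cell carboxypeptidase, had 1.38 ± 0.42 (adjusted p = 0.570 by the same test). The summed level of 6 mast cell markers, which include these 3 genes, was 93.6 to 156 CPM in knockouts and 51.3 to 87.1 CPM in controls, with Fcer1a at 0 reads. Its part in these values was not tested.

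Further enzymes of the list stayed near 0. Log2 fold changes were -0.06 for Prcp, -0.01 for Nln, 0.03 for Thop1, 0.14 for Dpp3 and 0.29 for Ctsa, peptidases that cut angiotensins or related peptides. Atp6ap2, the prorenin receptor, had -0.07, and Agtrap, which binds the type 1 receptor, had 0.13. Their adjusted p was 0.994 or more in edgeR's quasi-likelihood test, which does not show that the levels were equal.

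**Figure D3:**
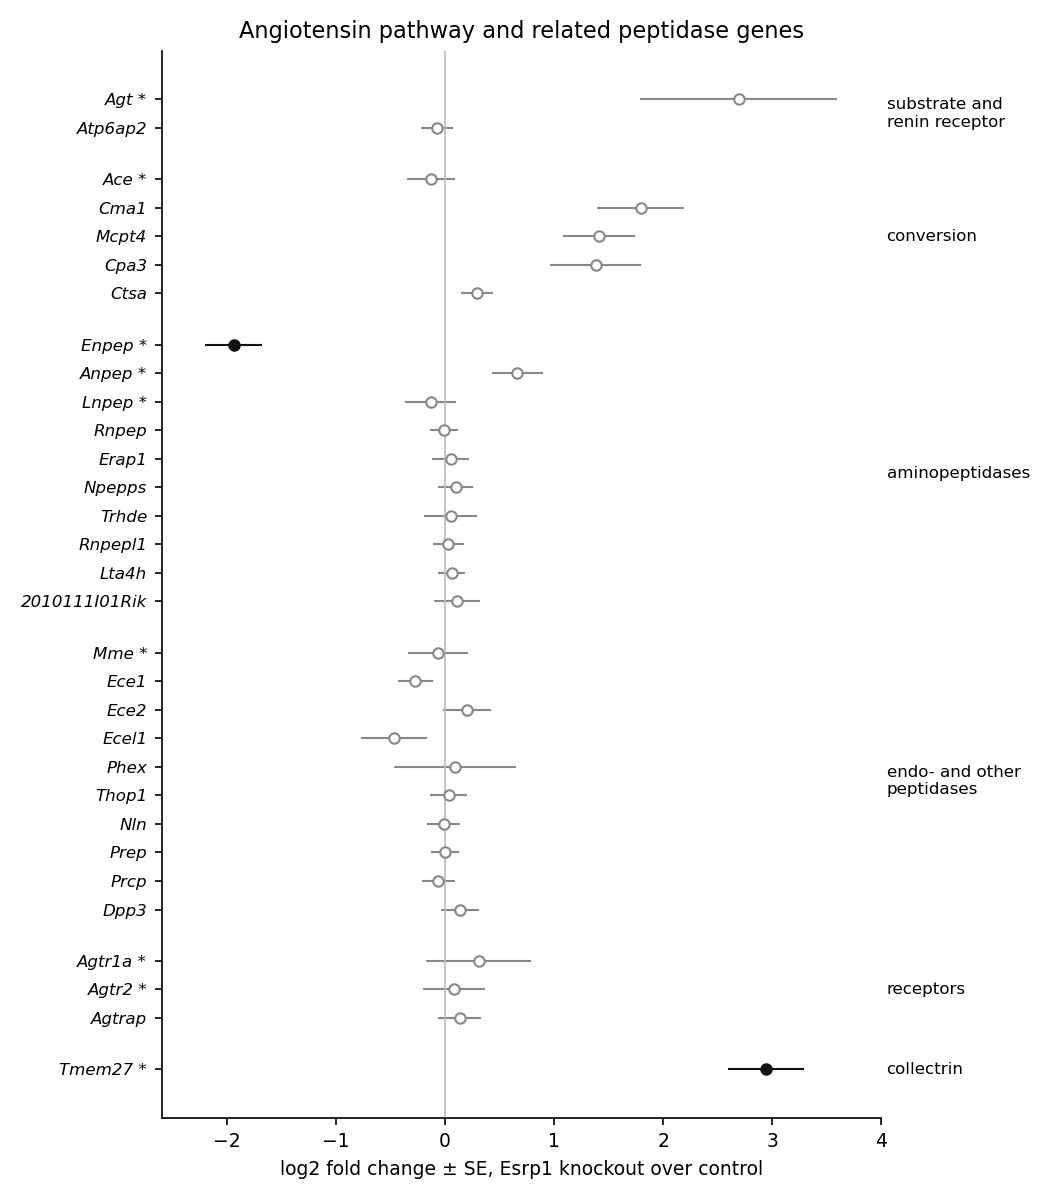
Log2 fold change (knockout over control) with SE for tested genes of the angiotensin pathway and related peptidase families, grouped by role; filled points have an adjusted p under 0.05 and asterisks mark the 9 genes. Enpep at -1.94 and Tmem27 at 2.94 are the filled points, and most aminopeptidases lie near 0.

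Of 6 tested endopeptidases of the M2 and M13 families, 0 passed in edgeR's quasi-likelihood test and 0 were at an unadjusted p under 0.05, and DESeq2 called 0. Their median log2 fold change was -0.10. Ecel1 was at -0.47 and Ece1, which makes endothelin, at -0.27. Of 11 other cell-surface peptidases, 0 passed and 1 was at an unadjusted p under 0.05, Fap, at 0.84 ± 0.19 (adjusted p = 0.238, edgeR's quasi-likelihood test), which DESeq2 called. Their median was -0.11. Of 2 kinin system genes tested, 0 passed and 0 were at an unadjusted p under 0.05 in edgeR's quasi-likelihood test, and DESeq2 called 0. Klkb1, plasma kallikrein, was at 1.32 ± 0.60 (adjusted p = 0.994 by the same edgeR test).

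Markers of some cochlear cell types moved with the genotypes beside Enpep and Tmem27. The sum of 10 strial marginal cell markers was 573 to 823 CPM in knockouts and 988 to 1639 CPM in controls, and 3 of the 9 tested fell (Kcne1, Esrrb and Bsnd), beside 0.0679% of all genes. The sum of 10 markers of Reissner membrane and roof was 8528 to 10846 CPM in knockouts and 3155 to 6828 CPM in controls. Most of that sum was Oc90, an otoconial protein gene, at 9687 ± 1273 CPM in knockouts and 4525 ± 1866 CPM in controls (SD, n = 3 each), which did not pass (adjusted p = 0.377, edgeR's quasi-likelihood test). Of the 10 roof markers tested, Slc26a7 rose, beside 0.0815% of all genes, and the other 9 did not pass, among them Bmp6 at a log2 fold change of -0.65. Both sums gave an exact permutation p of 0.10, the smallest that 3 against 3 embryos allow. Both lists were chosen with earlier results of these data known, so their sums, calls and p are a description and no further support. No marker of either list was at 0 reads in all embryos. Pericytes, which carry Enpep and Anpep in other tissues, had a marker sum of 330 to 385 CPM in knockouts and 348 to 392 CPM in controls (exact permutation p = 0.5). Notch3 was the largest part of that sum in every embryo, at 125 to 190 CPM in knockouts and 145 to 224 CPM in controls. Log2 fold changes of the 9 pericyte markers tested ran from -0.47 (Abcc9) to 1.20 (Cspg5), with 3 positive and none past the threshold. The sum therefore does not show that pericyte content was alike. For 6 smooth muscle markers the sum was 18.6 to 27.7 CPM in knockouts and 14.3 to 17.2 CPM in controls (exact permutation p = 0.10). For 10 markers of the cochlear duct floor it was 3717 to 6813 CPM in knockouts and 3872 to 6130 CPM in controls (exact permutation p = 0.8). Of the 10 floor markers tested, Epyc fell, beside 0.0679% of all genes, and the other 9 did not pass. The part of these cell types in the values of Enpep and Tmem27 was not tested.

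The genes most like each in pattern were taken by Pearson correlation of log2 CPM over the 6 embryos, among 12949 genes. This is a description, and with 3 embryos a genotype much of it is the difference between the groups. Those most like Enpep were Pacsin1 (r = 0.991), Vash1 (0.990), Bpifb3 (0.990), Abcg5 (0.988) and Uchl3 (0.987), and the most opposite were Mest (-0.994), Cnst (-0.989), Scel (-0.976), Parp9 (-0.975) and Hist1h4b (-0.971). Bpifb3 was at 1.11 ± 0.169 CPM in knockouts and 4.93 ± 2.62 CPM in controls (SD, n = 3 each). Those most like Tmem27 were Fxyd3 (0.997), a regulator of the sodium pump, Sdf2l1 (0.997), Blcap (0.996), Pnmal2 (0.993) and Cdkn2b (0.992). Fxyd3 was at 4.98 ± 1.70 CPM in knockouts and 0.947 ± 0.274 CPM in controls (SD, n = 3 each). The most opposite were Fancg (-0.985), Kcnc4 (-0.982), Taf1b (-0.975), Epyc (-0.965), a proteoglycan of the cochlear floor, and Ntrk3 (-0.963).

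The calls of Enpep and Tmem27 were lost when most single embryos were left out, though the directions were kept. Enpep kept a log2 fold change of -2.14 to -1.60 and Tmem27 of 1.92 to 3.47 over the 18 other settings. Leaving out 1 embryo moved the adjusted p of Enpep to 0.119 without knockout 1, 0.191 without knockout 2, 0.178 without knockout 3 and 0.147 without control 3, by edgeR's quasi-likelihood test. For Tmem27 the adjusted p by the same test was 0.0850, 0.0994 and 0.101 without knockouts 1, 2 and 3, and 0.0508 and 0.147 without controls 2 and 3. With Xist as a covariate, the log2 fold changes were -1.65 for Enpep and 3.47 for Tmem27, with adjusted p of 0.0889 and 0.0589 by that test.

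**Figure D4:**
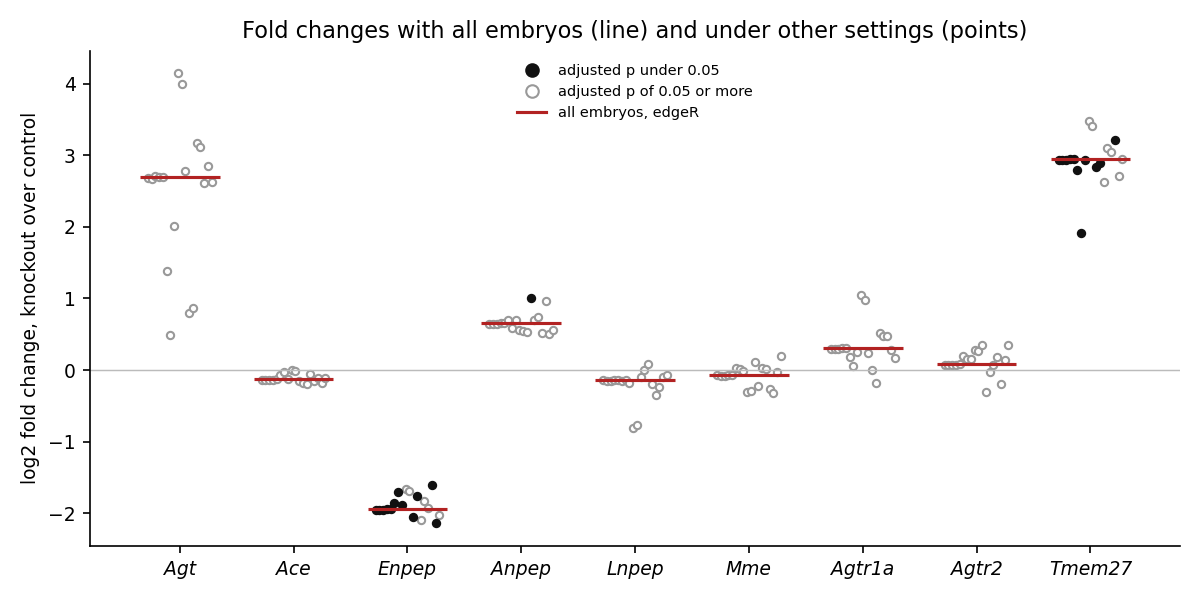
Log2 fold change (knockout over control) of the 9 genes with all embryos (red line) and under 18 other settings (points, filled where the adjusted p is under 0.05). Points of Enpep stay between -2.14 and -1.60 and those of Tmem27 between 1.92 and 3.47, while those of Mme, Agtr1a, Agtr2, Ace and Lnpep lie on both sides of 0.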

How the data were processed

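Counts were deposited by the authors as reads per RefSeq transcript with 1 column per embryo, unnormalised per the file headers. The authors also deposited FPKM, scaled by length and library size per the file headers, and the log2 fold changes with p-values and FDR of their own edgeR comparison. The submitters' processing notes name edgeR and mm10. Which aligner and counter were run is not given in the sources used here. Of the table's columns, 14 went unused, 6 of them per sample.

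Each of 22869 genes was taken from the row, of 28644, that held most of its reads. Genes were filtered with filterByExpr (minimum count 10), scaled by TMM and tested with edgeR 4.0.16's quasi-likelihood test in R 4.3.3, with Benjamini-Hochberg adjustment over 14717 genes and a threshold of 0.05, without pairing. Standard errors were derived from the log2 fold change and its F statistic. Alternatives used DESeq2 1.42.0, and limma 3.58.1 on log2 FPKM plus 0.1 or 1. Log2 CPM for correlations used a prior count of 2, and genes had a mean of at least 1 CPM.

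The genes, lists and tests were chosen with earlier results of these data known. Named genes are the 9, all tested M1 aminopeptidases, Ren1, Agtr1b, Mas1, each list's members past the threshold or else the one with the smallest adjusted p, the 5 most and least alike genes, and checks of the embryos; others, such as the mast cell proteases, were named after their values were seen. Genes that the rule takes are not all reported here.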

Additional observations from a re-analysis of the deposited data

How the results depend on the processing

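Over 18 other settings, 135 of 162 values of the 9 genes kept their direction and side of the threshold, 13 lost the call, 1 gained it (Anpep without both embryos numbered 1) and 13 changed sign. Against 22 genes called by edgeR's quasi-likelihood test, the count was 165 in DESeq2, 6 with the replicate block, 6 with Xist as a covariate, 159 with both embryos numbered 1 left out, 44 with the epithelial marker sum as a covariate (chosen after seeing the data), and 0 with knockouts 2 and 3 left out, where 2809 genes had an unadjusted p under 0.05. Leaving out 1 embryo gave 0 (without knockout 2 or control 3, with 680 and 540 genes at an unadjusted p under 0.05) to 30 genes. Of the 9, Enpep and Tmem27 were called, against 0 with Xist as a covariate, 0 with knockouts 2 and 3 left out, and 0 to 2 without 1 embryo. The sign of genes near 0 changed: Mme was at 0.023 and 0.021 in limma on log2(FPKM + 0.1) and log2(FPKM + 1) and 0.11 with the marker covariate, Ace at 0.0079 with Xist, and Agtr1a at -0.0024 and Agtr2 at -0.30 without both embryos numbered 1. Leaving out 1 embryo gave -0.17 to 0.52 for Agtr1a, -0.20 to 0.35 for Agtr2, -0.31 to 0.19 for Mme and -0.35 to 0.092 for Lnpep. The cause was not tested. Same-numbered embryos share a code stem whose meaning the labels do not give. Their deviations correlated at 0.0768, 0.177 and 0.0288, and not every embryo correlated best with its own number. Correlations over 3 embryos a group cannot decide whether these embryos were pairs, and the main test did not pair them. With the replicate block, Enpep was at -1.89 and Tmem27 at 2.94, both called. With 3 embryos a group, low counts of Agt, Agtr1a and renin limit what could be detected.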
